A study of Mus musculus with 6 samples.

Results

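The 10 Wnt ligand genes Wnt3, Wnt3a, Wnt4, Wnt5a, Wnt5b, Wnt6, Wnt7a, Wnt7b, Wnt10a and Wnt10b were followed in the forming furcation of the mouse molar, with and without Lhx6. They were taken by name from the 23594 genes of the deposited table, which lists 17 Wnt ligand genes in all, and all 10 entered the fit. Wnt3 passed the filter on low counts through its control libraries alone, and it is described without a test. Control mice were wild type, and Lhx6-/- mice were homozygous for the Lhx6-CreER knock-in allele. This allele abolishes the function of the gene in every tissue that uses it, and so not only in dental cells. Both groups were C57BL/6 mice 4.5 days old, were littermates and received no treatment in this experiment. Each library held the apical part of the region where the furcation develops (FDR), cut by laser from sections of mandibular first molars and pooled from 8 molars. There were 3 control and 3 Lhx6-/- libraries, so that a single animal cannot be told apart from its pool.

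Wnt ligands are secreted proteins that carry a lipid attached by Porcn and leave the cell with the carrier protein Wls. At the receiving cell they bind Frizzled receptors, and together with Lrp5 or Lrp6 they stabilise beta-catenin, which switches on targets such as Axin2. Some ligands, Wnt5a above all, act mainly through Ror receptors and without beta-catenin. In the developing tooth, Wnt signals pass in both directions between the dental epithelium, which forms the crown and then the root sheath, and the dental mesenchyme, which forms odontoblasts and pulp. From general knowledge of tooth development, Wnt3, Wnt4, Wnt6, Wnt7b and Wnt10b were placed with the dental epithelium, and Wnt5a and Wnt10a with the mesenchyme and odontoblasts, although Wnt10a is also made by dental epithelium. Wnt3a, Wnt5b and Wnt7a were assigned to neither tissue. Because each library mixed both tissues, these classes are background and were not measured here.

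Before any level is read, it matters whether 75-base reads can tell such related genes apart. Over the GENCODE vM21 transcripts of the 10 genes, no pair of ligands shared a stretch as long as a read. Of the longest such stretches 3 are shown, since they set how far the ligands can be separated. Each lies in the coding sequence of both genes. The Wnt5a and Wnt5b stretch lies at chr14:28522791-28522819 on the plus strand and chr6:119433519-119433547 on the minus strand of mm10. The Wnt7a and Wnt7b stretch lies at chr6:91366267-91366289 and chr15:85537807-85537829, both on the minus strand, and that of Wnt4 and Wnt10a at chr4:137296709-137296730 and chr1:74803550-74803571, both on the plus strand.
Wnt5a and Wnt5b (29 bases): atggacggctgcgagctcatgtgctgtgg
Wnt7a and Wnt7b (23 bases): ggtgtgtcaggctcctgtaccac
Wnt4 and Wnt10a (22 bases): ggttccactggtgctgcttcgt

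For 7 of the 10 ligands no 75-base window of their transcripts recurred in any other gene. The exceptions were Wnt4, where 1.78% of windows, in a simple repeat, recurred in many genes, Wnt5a, where 2.69% recurred in the overlapping gene Gm2670, and Wnt7b, where 2.86% recurred in the overlapping gene AU022754. Both of these genes lie on the opposite strand. Since the strand setting of the counting is not given in the sources used here, reads of these shared windows cannot be told apart, and the levels of Wnt5a and Wnt7b are uncertain to that extent. Wnt5b overlaps Fbxl14 and Wnt6 overlaps Gm29539 on the opposite strand, with no transcript window in common. Gm2670, Gm29539 and AU022754 did not exceed 1.27 counts per 1000000 (CPM) in any library, whereas Fbxl14 ran from 15.0 to 19.1 CPM.

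The ligand genes sit at scattered places of mm10, apart from 3 close pairs. Wnt6 (chr1:74771892-74785322) and Wnt10a (chr1:74791516-74804179) lie head to tail on the plus strand, 6193 bases apart. Wnt10b (chr15:98770712-98778150, minus strand) lies 11706 bases from Wnt1, and Wnt3a (chr11:59248033-59290752, minus strand) lies 16175 bases from Wnt9a. The others are Wnt3 (chr11:103774150-103817957, plus strand), Wnt4 (chr4:137277489-137299726, plus strand), Wnt5a (chr14:28504750-28527448, plus strand), Wnt5b (chr6:119432531-119544347, minus strand), Wnt7a (chr6:91363981-91411363, minus strand) and Wnt7b (chr15:85535437-85582473, minus strand). All 10 are annotated as protein coding, and the deposited counts are given per gene and not per transcript.

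Lhx6 is a homeodomain transcription factor, so the promoters of the ligands were read for the letters TAATTA, the core that many homeodomain factors bind, and CTTTGAT, the core bound by the TCF/LEF factors of the Wnt pathway. Both motifs were searched on both strands, and they do not overlap each other. RefSeq (GRCm38.p6) gave windows from 250 bases before to 50 bases after a start site for 7 of the 10 ligands, with 9 windows in all. Wnt5a, Wnt7b and Wnt10a had none. None of the 9 windows held TAATTA, which occurs in 5.29% of the 32851 promoter windows of the same length. CTTTGAT, which occurs in 3.73% of them, was found once, in a Wnt5b window (chr6:119449337-119449636, minus strand). That window is printed with the motif in capitals, beside those of Wnt4 (chr4:137277385-137277684, plus strand) and Wnt6 (chr1:74771642-74771941, plus strand), the abundant pair whose levels are set against each other below.
Wnt5b: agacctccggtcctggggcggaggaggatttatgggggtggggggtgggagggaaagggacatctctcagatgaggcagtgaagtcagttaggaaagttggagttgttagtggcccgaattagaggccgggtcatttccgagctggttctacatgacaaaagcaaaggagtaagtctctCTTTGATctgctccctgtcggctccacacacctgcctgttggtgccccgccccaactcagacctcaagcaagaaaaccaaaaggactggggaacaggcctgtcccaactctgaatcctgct
Wnt4: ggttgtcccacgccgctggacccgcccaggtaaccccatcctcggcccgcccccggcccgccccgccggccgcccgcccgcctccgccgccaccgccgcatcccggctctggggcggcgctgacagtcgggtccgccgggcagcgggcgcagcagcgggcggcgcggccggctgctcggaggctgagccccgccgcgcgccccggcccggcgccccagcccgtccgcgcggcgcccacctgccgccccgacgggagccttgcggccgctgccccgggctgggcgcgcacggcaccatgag
Wnt6: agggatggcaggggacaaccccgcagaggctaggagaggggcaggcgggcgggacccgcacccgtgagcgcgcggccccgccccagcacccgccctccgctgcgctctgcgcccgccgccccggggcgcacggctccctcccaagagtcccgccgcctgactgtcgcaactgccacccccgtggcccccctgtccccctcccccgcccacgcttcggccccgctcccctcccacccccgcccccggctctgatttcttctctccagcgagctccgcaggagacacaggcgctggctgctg

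G and C made up 84.3% of the Wnt4 window and 76.7% of the Wnt6 window, against a median of 52.7% over all promoter windows. A match is a description of these letters only, and windows without one say nothing of more distant sites.

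The depth was 60132323 to 76157433 estimated counts per library, and values below are CPM after TMM scaling, which corrects totals for differences in composition. Values of single libraries are given in the order of replicates 1, 2 and 3 of each group. Changes were tested with edgeR's quasi-likelihood test on genotype, fitted on all 20114 genes that passed its filter. A gene is said to meet the fold rule when its fold is 1.5 or more and its unadjusted p is under 0.05, the rule of the study's methods, and the adjusted p is that of Benjamini and Hochberg over all tested genes. With 3 libraries against 3, an exact permutation test of a single value cannot go below p = 0.1. Lhx6 itself was at 48.8% of its control level (log2 fold change -1.04, SE 0.16, adjusted p = 0.021 from edgeR), and the groups did not overlap. Its adjusted p exceeded 0.05 once summed Y-linked expression entered the fit as a covariate (log2 fold change -0.62, adjusted p = 0.115 from edgeR). It also did when control replicate 3 (0.111) or either of Lhx6-/- replicates 2 (0.11) and 3 (0.0772) was dropped.

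The captured tissue was mixed, and the marker RNA of some of its cell types differed between the groups. Whether the numbers of these cells differed was not measured. All 18 markers of dental epithelium were detected in every library, from the keratins Krt14 and Krt5 to Cldn4, the lowest at 0.241 to 1.18 CPM. All 18 had a fitted change below 0, 11 of them with an unadjusted p under 0.05 and 6 past the fold rule, and their summed level was 1630 to 2520 CPM in control and 1200 to 1390 CPM in Lhx6-/- libraries. All 6 blood markers were below 0 too, 3 past the fold rule, with sums of 2970 to 3700 CPM against 1590 to 2330 CPM. The 8 endothelial markers were above 0, 5 with an unadjusted p under 0.05 and 1 past the fold rule, with sums of 327 to 333 CPM against 364 to 423 CPM. Of 13 dental mesenchyme markers 12 were above 0, 6 of these with an unadjusted p under 0.05, as 1 below 0 had, and none met the fold rule, with sums of 1950 to 2050 CPM against 2190 to 2200 CPM. Over all tested genes, 3.28% met the fold rule and 9.81% had an unadjusted p under 0.05. Genes whose level depends on sex were read too. Xist, which is made from the inactive X chromosome of female cells, was at 411 to 792 CPM in control, at 290 CPM in Lhx6-/- replicate 1 and at 0.228 and 0.0537 CPM in replicates 2 and 3, without overlap, and summed Y-linked genes were at 14.6 to 58.0 CPM in control and 55.1 to 92.1 CPM in Lhx6-/- libraries. The sexes in each pool are not given. Sex-linked expression thus differed along with genotype, and its part in the change of any ligand cannot be fully told apart from that of Lhx6. Ligands whose call moved with the Y-linked level as a covariate are named below. Markers of ameloblasts, odontoblasts, osteoblasts, immune cells, nerve and glia, and muscle overlapped between the groups in their summed levels. A sum follows its most abundant genes, and some single markers differed. An unadjusted p under 0.05 was reached by 1 of 7 ameloblast markers (lower, adjusted p also under 0.05) and 1 of 8 odontoblast markers (higher). It was reached by 3 of 7 osteoblast (1 higher, 2 lower), 1 of 7 immune (lower), 4 of 7 nerve and glia (3 higher, 1 lower) and 0 of 6 muscle markers.

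Levels of different ligands were compared per kilobase of merged exon length. In control tissue Wnt4 (23.5 CPM per kb), a ligand of epithelial and mesenchymal signalling in many organs, and Wnt6 (23.2 CPM per kb), an epithelial ligand, were the most abundant, and their ranges over the libraries overlapped. Wnt10a (17.8 CPM per kb), the ligand whose human mutations leave teeth missing, came next and was separate from both neighbours in the order. Wnt5a followed at 8.88, Wnt7a at 8.05 and Wnt10b at 7.37 CPM per kb, each overlapping the next. Wnt5b at 4.67 and Wnt3a at 4.48 CPM per kb overlapped each other and were separate from Wnt10b. The remaining members were far lower, with Wnt7b at 1.95 and Wnt3 at 0.0848 CPM per kb. The exon length of Wnt5a, 7.823 kb, includes exons of alternative transcripts, so its level per kilobase is a low estimate. The same can hold for other ligands with several transcripts, such as Wnt10b (7 transcripts), Wnt7b (6) and Wnt5b (4).

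**Figure D1:**
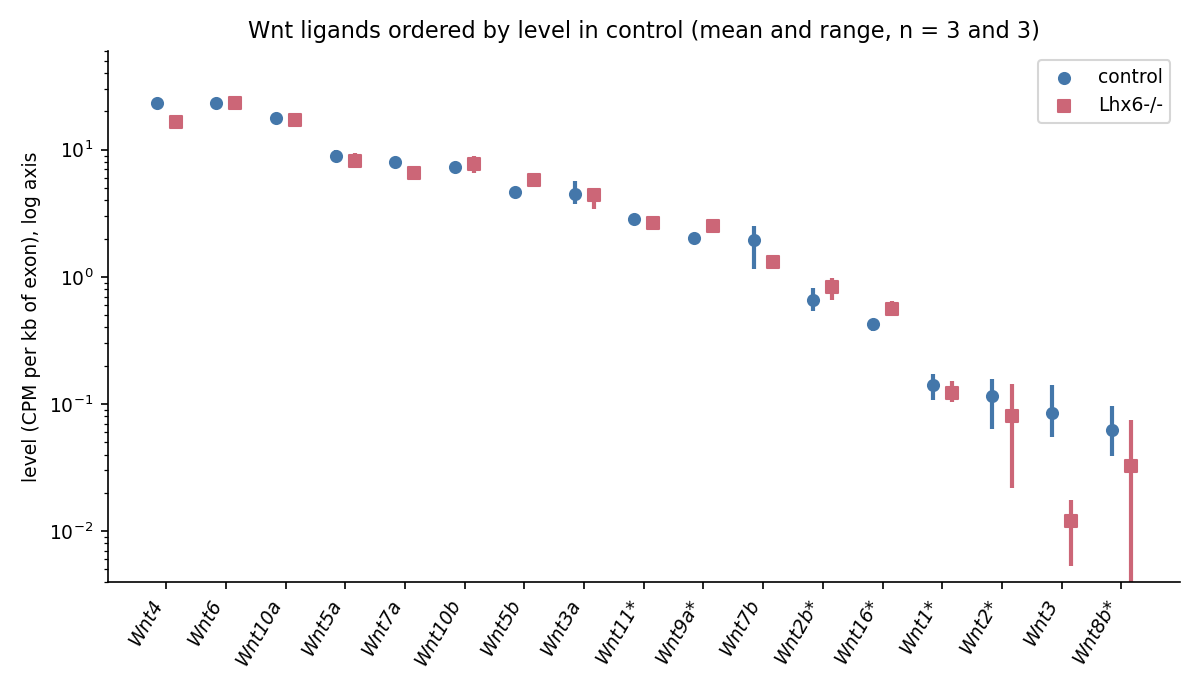
Level of the 17 Wnt ligand genes in CPM per kb of merged exon on a log axis, as the mean (points) and the range (bars) of 3 control libraries (blue circles) and 3 Lhx6-/- libraries (red squares), ordered by the control mean; an asterisk marks ligands other than the 10 described here. Wnt4 and Wnt6 lead at 23.5 and 23.2 CPM per kb in control, and in Lhx6-/- tissue Wnt4 stands below Wnt6 and Wnt10a at 16.4 CPM per kb; the Wnt8b bar runs off the axis because 1 Lhx6-/- library had no count.

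In Lhx6-/- tissue the order at the top was different. Wnt6 led at 23.2 CPM per kb, separate from Wnt10a at 17.0, and Wnt4 was at 16.4 CPM per kb, overlapping Wnt10a. Below them Wnt5a (8.08), Wnt10b (7.77), Wnt7a (6.5) and Wnt5b (5.77 CPM per kb) formed a run in which each overlapped the next, and Wnt3a stood at 4.42 CPM per kb. As a share of the summed level of all 17 ligands per kilobase, Wnt4 took 22.2% ± 0.256 (SD, n = 3) in control and 16.8% ± 0.312 (SD, n = 3) in Lhx6-/- tissue. The share of Wnt6 was 21.8% ± 1.34 and 23.8% ± 1.18, and that of Wnt10a was 16.7% ± 0.29 and 17.5% ± 0.942 (SD, n = 3 each).

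Summed by class, the epithelial ligands did not overlap between the groups and the other classes did. The 5 epithelial ligands together stood at 52.8, 56.3 and 59.3 CPM per kb in the control libraries, against 50.0, 46.2 and 49.7 CPM per kb in the Lhx6-/- libraries. Without Wnt4 the other 4 came to 32.6 ± 2.39 CPM per kb in control and 32.3 ± 1.85 CPM per kb in Lhx6-/- tissue (SD, n = 3), and the groups overlapped. The mesenchymal pair came to 26.7 ± 2.12 CPM per kb in control and 25.1 ± 2.68 CPM per kb in Lhx6-/- tissue, and the 3 unassigned ligands to 17.2 ± 1.34 and 16.7 ± 1.13 CPM per kb (SD, n = 3). The epithelial ligands made up 52.8% ± 1.89 of the ligand sum in control and 50.0% ± 1.72 in Lhx6-/- tissue (SD, n = 3), and these shares overlapped between the groups. With Wnt10a counted among them, the epithelial sum was 73.9 ± 4.03 and 65.7 ± 3.01 CPM per kb (SD, n = 3), without overlap.

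Of the 9 ligands other than Wnt3, 1 had an adjusted p under 0.05 (Wnt4, lower), against 0.403% of all tested genes (0.0795% lower and 0.323% higher). The fold rule was met by 1 (Wnt7b, lower), against 3.28% of all tested genes (1.71% lower and 1.58% higher). An unadjusted p under 0.05 was reached by 4, of which Wnt4, Wnt7a and Wnt7b were lower and Wnt5b higher, against 9.81% of all tested genes (5.07% lower and 4.75% higher). The groups did not overlap in 3 (Wnt4, Wnt5b and Wnt7a), against 15.5% of all tested genes. The fitted change was below 0 for 6 of the 9 and above 0 for 3. Their median log2 fold change was -0.06, where 50.3% of all tested genes were below 0 and their median was -0.00. Wnt3 would add 1 to each count but the first, and is left out because it entered the fit through its control level alone.

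**Figure D2:**
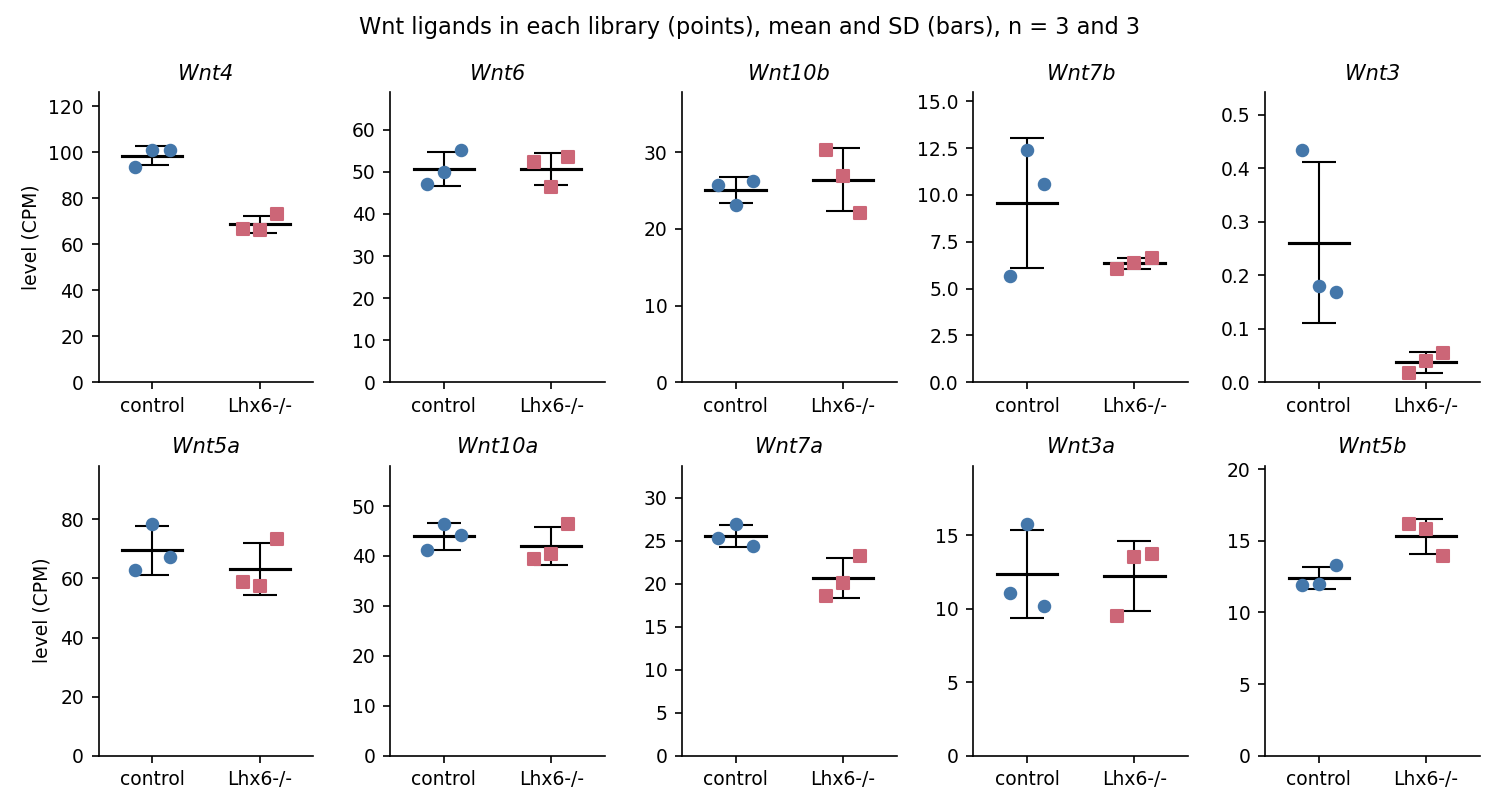
Level of each of the 10 ligands in CPM in every library, in 1 panel per gene with its own axis from 0, for control (blue circles) and Lhx6-/- tissue (red squares), with the mean (thick line) and SD (thin bars) of n = 3 libraries; the top row holds the epithelial ligands. The 3 Lhx6-/- libraries lie below all control libraries for Wnt4 (66.4 to 73.1 against 93.8 to 101 CPM), Wnt3 and Wnt7a and above them for Wnt5b, and the groups overlap for the other 6.

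Wnt4, a ligand that in other organs directs the formation of epithelia from mesenchyme and sex development, gave the clearest difference. Its level was 93.8, 101 and 101 CPM in the control libraries against 66.5, 66.4 and 73.1 CPM in the Lhx6-/- libraries. Every Lhx6-/- library lay below every control library, and the spread within each group was small beside the gap. The mean was 98.8 ± 4.3 CPM in control and 68.7 ± 3.86 CPM in Lhx6-/- tissue (SD, n = 3 each), so that Lhx6-/- tissue held 69.5% of the control level. In edgeR the log2 fold change was -0.52 (SE 0.07, 95% interval -0.68 to -0.37, adjusted p = 0.00879), and the gene ranked 17 by p among all tested genes. The change was smaller than the 1.5-fold of the fold rule. In bulk tissue, fewer cells of a type and less RNA per cell cannot be told apart, and this holds for each ligand below.

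Wnt4 fell, whereas Wnt6, the other abundant ligand placed with the epithelium, had the same mean in both groups. Wnt6 stood at 47.2, 49.9 and 55.2 CPM in control and at 52.4, 46.4 and 53.5 CPM in the Lhx6-/- libraries. The groups overlapped throughout, at 50.8 ± 4.06 and 50.8 ± 3.82 CPM (SD, n = 3 each) and a 95% interval of the log2 fold change from -0.18 to 0.18. Within each library there were 1.99, 2.03 and 1.84 CPM of Wnt4 per CPM of Wnt6 in control, and 1.27, 1.43 and 1.37 in Lhx6-/- tissue. This ratio, which was chosen after the levels were seen and does not depend on the scaling, did not overlap between the groups.

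Against the epithelial markers the picture differed. Per 1000 CPM of the 18 summed markers, Wnt4 stood at 57.5, 40.1 and 57.8 CPM in control and at 55.2, 50.8 and 52.6 CPM in Lhx6-/- libraries. These values overlapped, and the low one is control replicate 2, the library with the highest marker sum. With the mean log2 level of the markers as a covariate in edgeR, the log2 fold change of Wnt4 was -0.47 (unadjusted p = 0.000246, adjusted p = 0.104). Wnt6 relative to the same markers was 29.0, 19.8 and 31.5 CPM in control and 43.5, 35.6 and 38.5 CPM per 1000 CPM in Lhx6-/- libraries, which lay above all of control. Leaving out 1 library also took the adjusted p of Wnt4 over 0.05 in edgeR when that was control replicate 3 (0.0837), Lhx6-/- replicate 1 (0.0709) or Lhx6-/- replicate 2 (0.0879), with log2 fold changes of -0.50 in each.

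**Figure D3:**
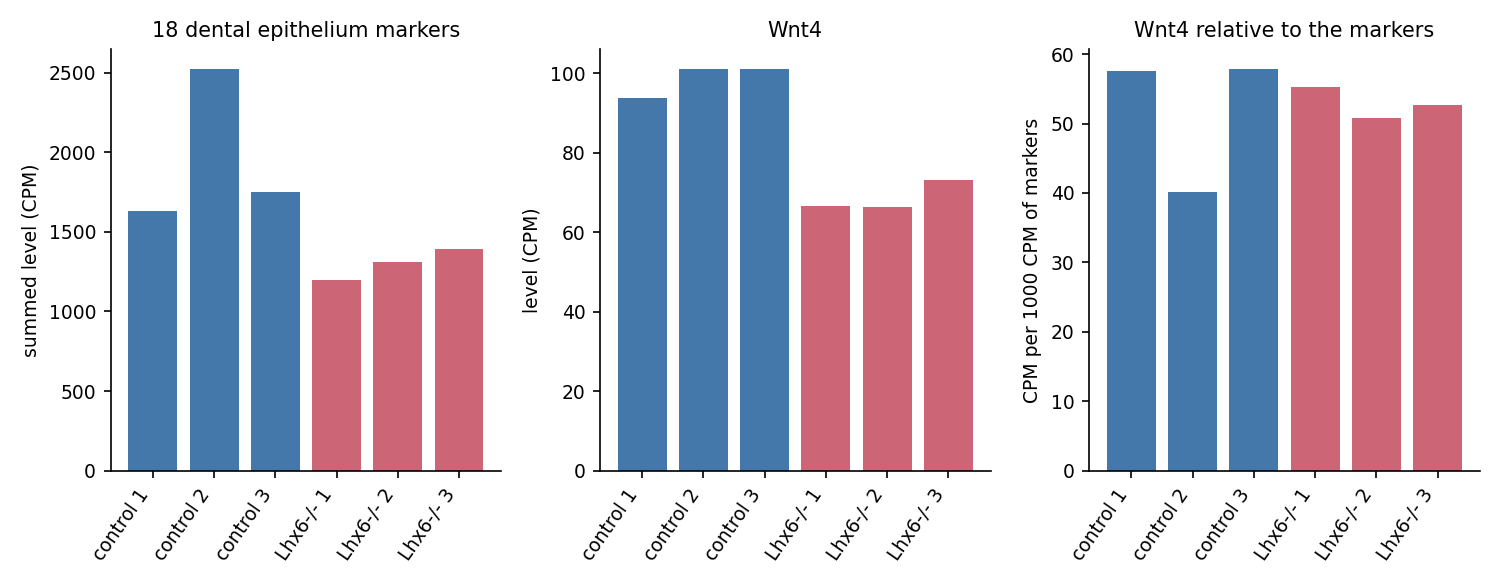
Summed level of 18 dental epithelium markers in CPM (left), level of Wnt4 in CPM (middle) and CPM of Wnt4 per 1000 CPM of these markers (right), with 1 bar per library, control in blue and Lhx6-/- in red. The groups are apart in the left panel (1630 to 2520 against 1200 to 1390 CPM) and the middle panel, and overlap in the right one, where control replicate 2 is lowest at 40.1.

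Wnt10b, which in many tissues signals through beta-catenin and in the tooth bud belongs to the epithelium, stood at 25.8, 23.1 and 26.3 CPM in control and at 30.3, 26.9 and 22.1 CPM in the Lhx6-/- libraries. The Lhx6-/- libraries held both the highest and the lowest value. The log2 fold change was 0.08 (SE 0.11, 95% interval -0.17 to 0.33), which leaves room for a change of that size in either direction.

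Wnt7b, a ligand of oral and other surface epithelia, met the fold rule and was lower in Lhx6-/- tissue, on values that overlapped. It stood at 5.67, 12.4 and 10.6 CPM in control and at 6.07, 6.36 and 6.65 CPM in the Lhx6-/- libraries. Control replicate 1 was the lowest of all 6 libraries, while the 3 Lhx6-/- libraries lay close together. The means were 9.55 ± 3.47 and 6.36 ± 0.289 CPM (SD, n = 3 each), and edgeR gave a log2 fold change of -0.59 (SE 0.24, unadjusted p = 0.0361, adjusted p = 0.473). With the epithelial marker level as a covariate the log2 fold change was -0.01 (unadjusted p = 0.985 from edgeR), and without control replicate 2, the library richest in those markers, it was -0.35 (unadjusted p = 0.143). Without control replicate 1 it was -0.85 (adjusted p = 0.0327 from edgeR), and the unadjusted p exceeded 0.05 when any of the other 5 libraries was left out. Per 1000 CPM of the markers, Wnt7b was at 4.81 ± 1.29 CPM in control and 4.90 ± 0.129 CPM in Lhx6-/- tissue (SD, n = 3).

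Wnt3, a ligand that signals through beta-catenin and is made by dental epithelium in the embryo, was close to the floor of detection. Its 27, 12 and 10 counts in control, and 1, 3 and 4 counts without Lhx6, are 0.434, 0.18 and 0.169 CPM against 0.0164, 0.0403 and 0.0537 CPM. All Lhx6-/- libraries were below all control libraries. The fitted log2 fold change was -2.74 (SE 0.91). Since the gene entered the fit through its control counts, this is a description and not a test. From the summed counts, 8 against 49, the depth-corrected ratio was 0.146, also as a description that leaves out the spread between libraries. Wnt3 made up a mean of 0.0814% of the ligand sum per kilobase in control and 0.0122% in Lhx6-/- tissue.

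Neither mesenchymal ligand met the fold rule or had an adjusted p under 0.05. Wnt10a, made by odontoblasts and linked to tooth agenesis and to the shape of roots, stood at 41.1, 46.5 and 44.3 CPM in control and at 39.4, 40.3 and 46.4 CPM in the Lhx6-/- libraries. Its means were 44.0 ± 2.72 and 42.0 ± 3.84 CPM (SD, n = 3 each), and the 95% interval of the log2 fold change, -0.25 to 0.12, did not reach the -0.52 of Wnt4. Summed odontoblast markers overlapped between the groups, at 73600 to 94600 CPM in control and 86300 to 93700 CPM in Lhx6-/- tissue. Of these 8 markers, 6 had a fitted change above 0, against 49.7% of all tested genes. The groups did not overlap in 3, against 15.5%. The odontoblast gene Dspp was at 4470 ± 235 and 5610 ± 338 CPM (SD, n = 3), without overlap (log2 fold change 0.33, adjusted p = 0.199 from edgeR). The part of odontoblasts in the level of Wnt10a was not tested.

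Wnt5a, a ligand of the branch without beta-catenin that guides the movement and polarity of cells, was the mesenchymal ligand with the wider spread. It stood at 62.7, 78.6 and 67.2 CPM in control and at 58.7, 57.5 and 73.4 CPM in the Lhx6-/- libraries. Lhx6-/- replicate 3 lay within the control range and the other two below it. The log2 fold change was -0.14 (SE 0.11, 95% interval -0.38 to 0.10), and it was -0.26 (unadjusted p = 0.0237 from edgeR) without Lhx6-/- replicate 3 and -0.37 (unadjusted p = 0.0193) with summed Y-linked expression as a covariate. Beside these values the dental mesenchyme markers had a median log2 fold change of 0.18, and their part in the levels of both ligands was not tested.

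**Figure D4:**
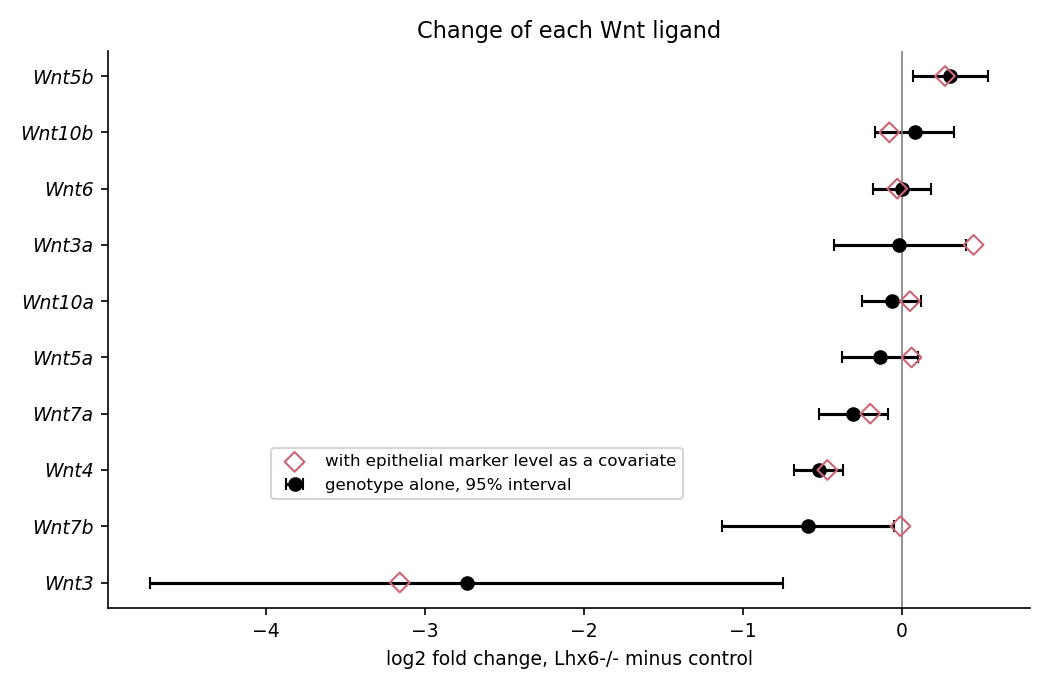
Log2 fold change of each ligand, Lhx6-/- minus control, with its 95% interval from edgeR's fit on genotype alone (black points and bars) and the value of the fit with the epithelial marker level as a covariate (open red diamonds), ordered by the former. The interval of Wnt4 (-0.68 to -0.37) lies wholly below 0 and its diamond is at -0.47, whereas the diamond of Wnt7b is at -0.01 and that of Wnt3a at 0.45. The interval drawn for Wnt3 is a description and not a test, since that gene entered the fit through its control counts.

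Among the unassigned ligands, Wnt7a was lower and Wnt5b higher without overlap, and neither met the fold rule or had an adjusted p under 0.05. Wnt7a, known from limb patterning and from brain vessels, stood at 25.3, 27.0 and 24.4 CPM in control and at 18.6, 20.1 and 23.2 CPM in the Lhx6-/- libraries. Its log2 fold change was -0.31 (SE 0.10, 95% interval -0.52 to -0.09, unadjusted p = 0.00894, adjusted p = 0.295 from edgeR). With the epithelial marker level as a covariate it was -0.20 (unadjusted p = 0.156). Relative to the 18 markers its values overlapped between the groups.

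Wnt5b, the close relative of Wnt5a, stood at 11.9, 12.0 and 13.3 CPM in control and at 16.2, 15.8 and 13.9 CPM in the Lhx6-/- libraries. All Lhx6-/- libraries lay above all control libraries, by a narrow margin. Its log2 fold change was 0.30 (SE 0.11, 95% interval 0.07 to 0.54, unadjusted p = 0.0155, adjusted p = 0.354 from edgeR). The unadjusted p exceeded 0.05 without Lhx6-/- replicate 1 (0.0586) or 2 (0.0554), and with the epithelial marker level as a covariate (0.115 from edgeR, log2 fold change 0.27). The gene Fbxl14 on the other strand had means of 18.2 ± 0.718 CPM in control and 16.8 ± 2.12 CPM in Lhx6-/- tissue (SD, n = 3), overlapping between the groups.

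Wnt3a, a ligand widely used to activate beta-catenin in culture, stood at 11.1, 15.8 and 10.2 CPM in control and at 9.48, 13.5 and 13.7 CPM in the Lhx6-/- libraries. The groups overlapped, and control replicate 2, with the highest level, was also the library with the highest epithelial marker sum. The log2 fold change was -0.02 (SE 0.19, 95% interval -0.43 to 0.40). It depended on the covariate, being 0.45 (unadjusted p = 0.0264, adjusted p = 0.605 from edgeR) with the epithelial marker level and -0.59 (unadjusted p = 0.00638, adjusted p = 0.133) with the level of Y-linked genes. With the latter covariate Wnt3a met the fold rule. Per 1000 CPM of the markers it stood at 6.30 ± 0.48 CPM in control and 9.34 ± 1.3 CPM in Lhx6-/- tissue (SD, n = 3), without overlap.

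The other 7 ligand genes of the table stood below Wnt3a per kilobase in control. Of these, Wnt11 (2.86 CPM per kb) and Wnt9a (2.03) stood above Wnt7b (1.95 CPM per kb). None of the 7 met the fold rule, against 3.28% of all tested genes. Wnt9a was the only one with an unadjusted p under 0.05 (6.77 ± 0.342 against 8.43 ± 0.623 CPM, log2 fold change 0.32, 95% interval 0.02 to 0.61), against 9.81% of all tested genes. Wnt11, the highest of them, stood at 11.8 ± 0.805 CPM in control and 11.1 ± 1.01 CPM in Lhx6-/- tissue (SD, n = 3). Wnt2b and Wnt16 were at 2.24 to 4.11 and 1.64 to 2.83 CPM over all libraries. Wnt1, Wnt2 and Wnt8b did not exceed 0.406 CPM.

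For the machinery that makes and exports the ligands, 11 genes were read. They include the acyltransferase Porcn, the carrier Wls, the cargo receptors Tmed2, Tmed5 and Tmed10, and the lipid phosphatase gene Mtm1. The rest are the retromer genes and sorting nexins that recycle Wls. None of the 11 had an unadjusted p under 0.05 in edgeR, where 9.81% of all tested genes did. With so few genes, a count of 0 is near that share. Their median log2 fold change was 0.01. Wls stood at 146 ± 10.2 CPM in control and 148 ± 11.7 CPM in Lhx6-/- tissue, and Porcn at 21.7 ± 1.49 and 21.9 ± 3.37 CPM (SD, n = 3).

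At the receiving side, none of 18 receptors and co-receptors met the fold rule, against 3.28% of all tested genes. An unadjusted p under 0.05 was reached by 6 (5 higher, 1 lower), against 9.81% of all tested genes (4.75% higher and 5.07% lower). Reck and Adgra2, which together form a co-receptor particular to Wnt7a and Wnt7b, were among the higher ones and are named here after their values were seen. Adgra2 stood at 79.1 ± 3.12 CPM in control and 105 ± 11.6 CPM in Lhx6-/- tissue (log2 fold change 0.41, SE 0.08, adjusted p = 0.0725 from edgeR), and Reck at 35.6 ± 3.23 and 41.4 ± 0.963 CPM (0.22, SE 0.08, adjusted p = 0.394). The other higher ones were Fzd1, Fzd2 and Lrp6, with log2 fold changes of 0.21 to 0.35, and Fzd10 was lower (-0.38). The 8 endothelial markers all had a fitted change above 0 (median log2 fold change 0.22), and their part in the level of Adgra2 was not tested. Of 7 R-spondin and Lgr genes none met the rule. Rspo1 alone had an unadjusted p under 0.05 (log2 fold change 0.29), against the same shares of all tested genes.

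Among secreted and membrane inhibitors of the ligands, 3 were higher (Sfrp2, Frzb and Shisa3) and 2 lower (Sfrp5 and Notum) past the fold rule, of 17, where the rule took 3.28% of all tested genes. Shisa3 and Sfrp5 overlapped between the groups (adjusted p = 0.441 and 0.374 from edgeR). Kremen2, at no more than 3 counts in any Lhx6-/- library, entered the fit through control alone and is left out of this count. Sfrp2, which binds Wnt proteins outside the cell, stood at 124 ± 22.2 CPM in control and 268 ± 48.4 CPM in Lhx6-/- tissue, and Frzb, a relative of it, at 37.4 ± 1.34 and 61.5 ± 6.25 CPM (SD, n = 3, adjusted p = 0.0429 and 0.00576 from edgeR). Notum, the enzyme that removes the lipid of Wnt ligands and is itself a target of the pathway, was at 17.0 ± 3.06 CPM in control and 9.06 ± 0.0967 CPM in Lhx6-/- tissue (adjusted p = 0.0145). Of 18 feedback targets, 2 met the rule, Notum and Fgf9, both lower, against the same 3.28%. An unadjusted p under 0.05 was reached by 4 that were lower (Notum, Fgf9, Nkd1 and Rnf43), against 5.07% of all tested genes. It was reached by 2 that were higher (Tcf7 and Twist1), against 4.75%. Of the 18 targets, 13 had a fitted change below 0, where 50.3% of all tested genes did. Axin2 stood at 21.1 ± 0.746 CPM in control and 20.0 ± 3.12 CPM in Lhx6-/- tissue (log2 fold change -0.08, SE 0.11).

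The ligands differed from one another in which genes followed them most closely over the 6 libraries. By Pearson's r of log2 CPM among 15120 tested genes of at least 1 CPM, Wnt3a was most like Shh (r = 0.999) and Erp44 (0.992), Wnt4 like Ptgr1 (0.994) and Ssna1 (0.993), and Wnt7b like Cebpb (0.999) and Hmgn2 (0.999). Wnt5a was most like 1700123O20Rik (0.998), Wnt5b like Dbp (0.994), Wnt6 like Pigf (0.978), Wnt7a like Eif2s1 (0.998), Wnt10a like Arl8b (0.994) and Wnt10b like Ecscr (0.992). Wnt3, whose counts were few, was most like the globin gene Hbq1b (0.989). None of these genes was another Wnt ligand. Each is the best of a long search over 6 libraries that share their depth and tissue make-up, and r is given as a description only.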

How the data were processed

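RNA was measured in laser-captured FDR tissue of 3 control and 3 Lhx6-/- libraries, each from 8 pooled molars. The authors trimmed 75-base single-end reads, aligned them to mm10 with STAR 2.6.1d and quantified genes in Partek. The deposited values are estimated counts for 23594 genes, not normalized. The counter, annotation and strand setting are not given in the sources used here. In the deposited count table every gene reached at least 10 in some library. A second table that the authors deposited holds the results of their own comparison (ratios, fold changes and p-values, none of which was used), gene positions, and a summed score per gene, which was used only to check the gene order (largest relative deviation 1.14e-07). The last position of each gene there was 1 past the GENCODE vM21 end and was lowered by 1.

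Libraries were grouped by their titles, where the Lhx6-/- libraries are numbered 1 to 3 (2 to 4 in the table). Estimated counts were rounded and tested with edgeR 4.0.16 (R 4.3.3, limma 3.58.1) using TMM, edgeR's filter, which kept 20114 genes, and robust dispersion, two-sided. SE was |log2 fold change| / sqrt(F). On simulated data, 175 of 200 changed genes among 19510 were recovered after adjustment and 17 others were called. Depth was 60132323 to 76157433 counts per library, so for all ligands but Wnt3 the spread between 3 libraries limited the precision. Nothing in the labels says whether libraries of a group came from separate litters, so p-values measure the spread between these pools. Sums of epithelial ligands without Wnt4 or with Wnt10a were added later. Merged exon lengths came from GENCODE vM21 and promoters from RefSeq (GRCm38.p6).

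The ligands, the marker and pathway lists and the alternatives were chosen with earlier results of these data known. Named were all ligands, Lhx6, list genes past the fold rule or an adjusted p of 0.05, Porcn, Wls, Axin2, some markers, and the genes most like each ligand. Reck, Adgra2, the other receptors, Rspo1, Mtm1, Nkd1, Rnf43, Tcf7 and Twist1 were named after their values were seen. Alternatives were upper-quartile and total-count scaling, totals without Amelx and CT010467.1, DESeq2 1.42.0, limma-trend (prior count 2 or 0.5), limma voom, other filters and dispersion, a replicate block, covariates for epithelial markers and for Y-linked genes, a fold of 2, and leaving out each library. Wnt8a and Wnt9b were not analysed here. Figures were drawn with matplotlib 3.10.9.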

Additional observations from a re-analysis of the deposited data

How the results depend on the processing

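Each ligand was refitted under 19 alternatives (18 for Wnt3, which was not tested when at least 10 counts were required in every library). Wnt4 kept its direction and an unadjusted p under 0.05 in all 19, with log2 fold changes from -0.57 to -0.47 and adjusted p-values from 2.78e-08 to 0.104, over 0.05 in 4. The count of ligands with an adjusted p under 0.05, 1 in the report, was 0 with the epithelial marker covariate and 0 to 2 when 1 library was left out. The count of ligands past the fold rule was 2 with Wnt3 included. With the Y-linked covariate the count was also 2, but the ligands were Wnt3a and Wnt7b, and Wnt3 did not meet the rule. The count was 1 under upper-quartile scaling, total-count scaling, limma-trend with either prior count, limma voom and no filter. The replicate block, the epithelial marker covariate and a fold of 2 gave 1 as well. In each of these settings the 1 ligand was Wnt3, which is described without a test, and Wnt7b did not meet the rule. The count was 0 under the filter of 10 counts, and it ran from 0 to 1 when 1 library was left out. Where it was 1 there, the ligand was Wnt7b without control replicate 1 and Wnt3 otherwise. Wnt7b met the rule in 5 of 19 alternatives. Ligands near 0 turned sign: Wnt3a was 0.06 under limma voom, 0.45 with the epithelial marker covariate and from -0.14 to 0.20 without 1 library; Wnt6 was -0.00063 under DESeq2, -0.02 under limma voom, -0.03 with the epithelial marker covariate and -0.05 to 0.07 without 1 library; Wnt5a was 0.06, Wnt10a 0.05 and Wnt10b -0.08 with that covariate, and Wnt10b ran from -0.03 to 0.19 without 1 library. With Y-linked genes as a covariate Wnt5a was -0.37 (unadjusted p = 0.0193 from edgeR). The cause of these shifts was not tested.

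Over all genes, 660 met the fold rule in the report, 1174 with the Y-linked covariate and 350 with a fold of 2. An adjusted p under 0.05 was reached by 81, and by 315 in DESeq2, 134 with the replicate block, 19 with the epithelial marker covariate, 233 with the Y-linked covariate and 12 to 127 without 1 library. The methods mention 3 pairs and littermates, but which libraries were paired is not stated, and the titles and the table number the Lhx6-/- libraries differently. Deviations of libraries with the same title number from their group means correlated at 0.03, -0.03 and -0.03, so the block on these numbers is given here alone, and it does not test the pairing of the methods. For Wnt3, with 1 to 4 counts in the Lhx6-/- libraries, depth limits any finer reading of its level. For the other 9 ligands, at 353 counts or more in every library, it does not.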
